A study of Mus musculus with 6 samples.

Results

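The small structured RNAs 7SL, 7SK, RMRP and RPPH1 and a set of the proteins that bind them were examined as 10 genes, listed by name and found by their symbols among the 54232 gene rows of a mouse testis count table. The 5 RNA genes were *Rn7sk*, *Rn7s1*, *Rn7s2*, *Rmrp* and *Rpph1*. The 5 protein genes were *Srp9*, *Srp14*, *Srp68*, *Srp72* and *Ssb*. Because *Rmrp* has 2 rows, the 10 genes took 11 rows.

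Whole testes of B6D2F1 mice at postnatal day 12 (P12) were sequenced as 3 control libraries (*Dis3l2* WT in the labels) and 3 whose label is *Dis3l2* KO, here named KO-labelled. The study describes its mutants as *Stra8-Cre*; *Dis3l2* F/- mice. In that genotype 1 allele is deleted throughout the animal and Cre removes the other only from the germ line, in part of the spermatogonia and in the cells that follow, while Sertoli, Leydig and other somatic cells keep a floxed copy. The genotype of the littermate controls beyond WT and the number of animals behind a library were not given in the sources used here, and p-values measure only the spread between these libraries. DIS3L2 is a cytoplasmic exoribonuclease that degrades RNAs from the 3′ end, and structured RNAs made by RNA polymerase III that carry added uridines are among its known substrates. The comparison addresses whether these RNAs and the genes around them differed between the KO-labelled and the control testes.

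7SL RNA is the scaffold of the signal recognition particle (SRP), which halts translation of secretory proteins and takes the ribosome to the endoplasmic reticulum (ER). SRP9 and SRP14 form a dimer on the Alu domain of 7SL, whereas SRP19, SRP54 and the SRP68 and SRP72 pair sit on the S domain, where SRP54 reads the signal peptide. 7SK RNA holds the elongation kinase P-TEFb inactive with the proteins HEXIM1, LARP7 and MEPCE. RMRP and RPPH1 are the RNAs of RNase MRP and RNase P, which process precursors of ribosomal and transfer RNA and share most of their proteins. La, the product of *Ssb*, binds the uridines at the end of new RNA polymerase III transcripts.

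The sequences and the annotation decide which of these RNAs the table could count, so they come first. A read was counted only if it mapped to 1 place and touched 1 gene on its strand, and the reads were 50 bases long. *Rn7s1* (chr12:69159295-69159594, + strand, GRCm38) and *Rn7s2* (chr12:69361182-69361481, - strand) are identical over all 300 bases, and each is crossed by a pair of annotated miRNA rows on its own strand that take 147 bases. Of the 251 windows of 50 bases in this RNA, 93 were free of the miRNA rows, and 251 also occurred in other annotated genes. The miRNA rows *Gm47287*, *Gm47295*, *Gm47299* and *Gm47305* had 0 counts in every library. A 7SL read could therefore be given to *Rn7s1* or *Rn7s2* only where it differed from the annotated sequence, ran past its ends or was reported at 1 place.

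*Rmrp* is annotated as a 281-base lincRNA row (chr4:43492783-43493063, - strand) that holds the whole of a 271-base ribozyme row (chr4:43492788-43493058). The RMRP sequence is shown to make this plain, with the 10 bases that only the longer row holds in capitals.

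RMRP (*Rmrp*): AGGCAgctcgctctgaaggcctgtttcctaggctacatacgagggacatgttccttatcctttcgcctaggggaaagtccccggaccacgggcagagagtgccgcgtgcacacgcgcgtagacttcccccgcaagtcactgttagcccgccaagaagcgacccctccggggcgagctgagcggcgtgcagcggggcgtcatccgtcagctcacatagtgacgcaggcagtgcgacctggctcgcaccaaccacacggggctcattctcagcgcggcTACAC

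No window of 50 bases avoided the shared part: 0 windows were free in either row. Both rows had 0 counts in all 6 libraries. A count of 0 allows up to 3 counts, or 0.0667 to 0.0900 CPM (counts scaled to a fixed library total) by library, but that limit covers counting error in assignable reads only. The level of RMRP was thus not measured by this table, and no statement on it was possible. Exons of *Ccdc107* cross 124 of these bases on the opposite strand, and reads of that gene were counted separately because counting used strand.

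*Rpph1* (chr14:50807449-50807767, - strand, 319 bases) shares 233 bases, or 73.0% of its length, with the first exon of *Ccnb1ip1* on the same strand, which is annotated as UTR. It had 2 free windows of 50 bases. Its counts were 1, 1 and 0 in the control libraries and 1, 0 and 5 in the KO-labelled libraries. These counts are at or near the 3 counts that a count of 0 allows, and *Rpph1* did not pass the filter on low counts.

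*Rn7sk* (chr9:78175303-78175633, - strand, 331 bases) has no other row on its strand. However, 192 of its 282 windows of 50 bases also occur in other genes, all of them in *Gm24447*, a 338-base row of the same RNA class (chr15:93234363-93234700, + strand). The first 241 bases of the 2 rows are identical. Their 3′ ends are shown from 20 bases before the split, with the parts that differ in capitals.

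7SK (*Rn7sk*): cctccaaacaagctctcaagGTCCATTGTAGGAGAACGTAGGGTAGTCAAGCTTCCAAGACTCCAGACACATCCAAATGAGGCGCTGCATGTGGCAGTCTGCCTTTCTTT

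*Gm24447*: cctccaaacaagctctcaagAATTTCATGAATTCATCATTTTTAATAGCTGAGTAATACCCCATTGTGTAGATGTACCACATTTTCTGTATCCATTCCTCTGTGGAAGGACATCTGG

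Reads that lie wholly in the first 241 bases fit both rows. By the annotation, *Rn7sk* could be counted from reads reaching its last 90 bases, and *Gm24447* from reads reaching its last 97 bases. Reads that differ from the annotated sequence or run past the first base could also be counted. The positions of the counted reads were not examined.

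**Figure D1:**
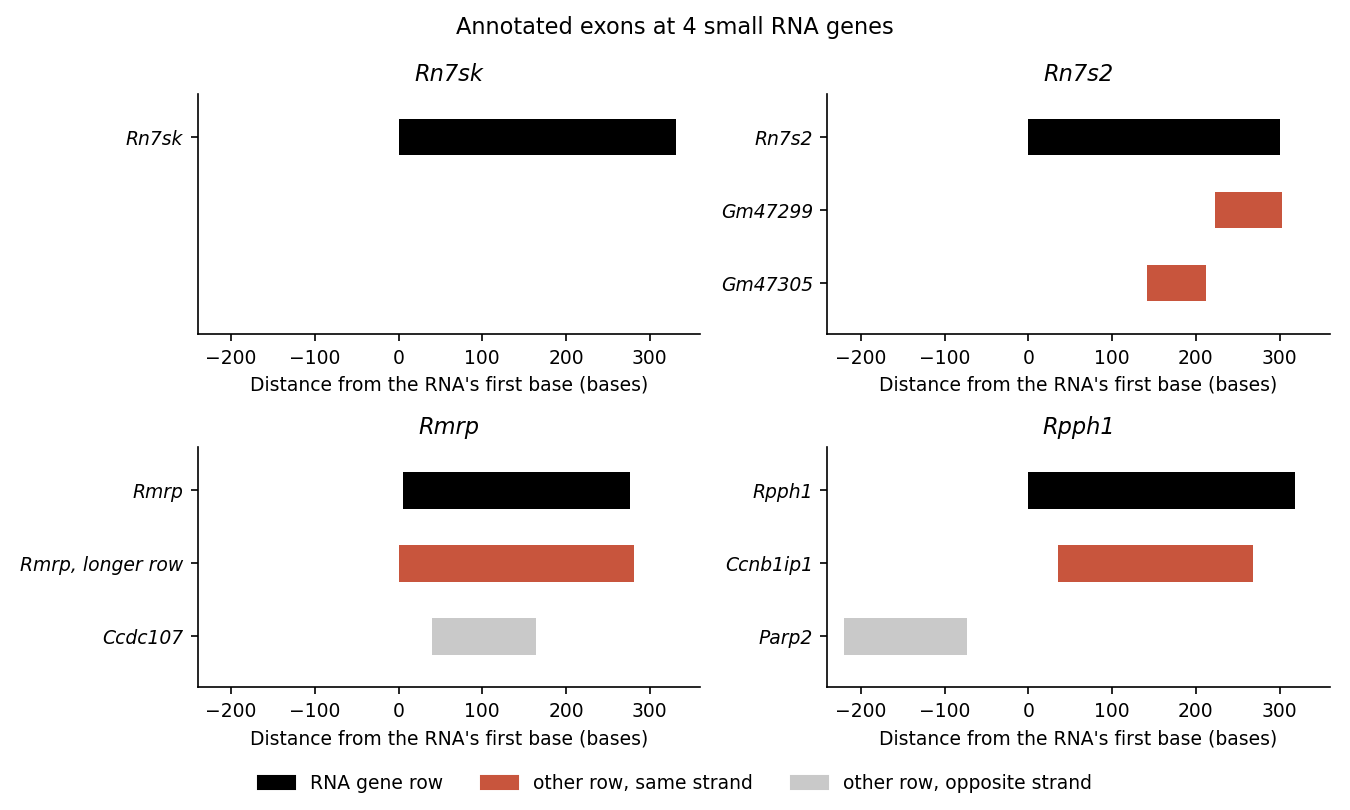
Annotated exons at *Rn7sk*, *Rn7s2*, *Rmrp* and *Rpph1*, drawn to scale by distance in bases from the first base of each RNA. Black bars are the RNA rows, red bars other rows on the same strand and grey bars rows on the opposite strand, and *Rmrp* is covered whole by its 281-base second row while *Rn7sk* stands free.

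Depth was 33325483 to 44956193 counts per library. Of the 54232 rows, 20327 passed the filter on low counts and entered the quasi-likelihood test of edgeR, in which a call is a Benjamini-Hochberg adjusted p under 0.05 over all of them. CPM are scaled by TMM, and the log2 fold change (log2FC, with its standard error, SE) is KO-labelled minus control. *Dis3l2* itself had a log2FC of 0.22 (SE 0.11, adjusted p = 0.136 in edgeR) and *Dis3*, the gene that the design text names, one of -1.13 (SE 0.08, adjusted p = 2.7e-07 in edgeR), so the counts do not show the labelled deletion, and whether *Dis3l2* or *Dis3* was deleted in these libraries cannot be told from them. A count per gene adds exons outside a deleted part and cells without Cre. The study's own assays of *Dis3l2* RNA and protein in testes of this age were not analysed here. Every difference given here is therefore one between libraries by their labels. Markers of several cell types moved as well: 12 of 12 meiotic germ cell markers were lower, with summed levels of 1522 to 1817 CPM in controls and 346 to 477 CPM in KO-labelled testes. Of the 10 spermatogonia markers 2 were higher and 4 lower, and 12 of 12 Sertoli cell markers were higher, with summed levels of 6721 to 7273 CPM in controls and 11073 to 11694 CPM in KO-labelled testes. Leydig cell markers were higher for 6 of 8, endothelial markers for 2 of 5 and macrophage markers for 3 of 6. Peritubular myoid markers were lower for 3 of 6. Over all tested genes 16.2% were called higher and 16.5% lower, and lists of 5 or 6 markers are too short to set against these shares. None of these marker genes was at 0 in every library. In whole testes, fewer cells of a type and less RNA per cell cannot be told apart, and the part of these shifts in the results that follow was not tested.

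Of the 10 genes, 7 were tested and 3 (*Rn7s1*, *Rmrp* and *Rpph1*) were not. Called were 2 of the 7, *Srp9* and *Srp14*, both lower, and 0 were higher in edgeR (0 also at an unadjusted p under 0.05, in DESeq2 and in limma-voom). Over all tested genes 32.7% were called, 16.2% higher and 16.5% lower, so the members' count lies near the background. The median log2FC of the 7 was -0.13, beside -0.02 over all tested genes. Control and KO-labelled libraries stood apart for 1 of the 7, *Srp14*, whereas they did not overlap for 45.5% of all tested genes.

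7SK RNA was not distinguishable between the groups. *Rn7sk* had 36.7, 20.7 and 32.3 CPM in controls against 40.6, 23.3 and 41.1 CPM in KO-labelled testes. The groups overlapped, and replicate 2 was the low library in both. The log2FC was 0.23 (SE 0.21, 95% interval -0.22 to 0.67, adjusted p = 0.438 in edgeR), an interval that runs from 0.861-fold to 1.59-fold. Under a scaling to the summed counts of somatic cell markers, which lowers a typical gene by 0.57 on the log2 scale, the value was -0.35 (adjusted p = 0.196 in edgeR). That sum is mostly Sertoli cell markers, at 6721 to 7273 CPM in controls where peritubular myoid markers, the next largest, had 1490 to 1508 CPM. *Clu* alone had a control mean of 3572 CPM. The scaling thus follows Sertoli cell markers more than those of other somatic cells.

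7SL RNA was read mostly from *Rn7s2*. It had 15.5, 11.2 and 27.0 CPM in controls against 14.0, 17.0 and 14.2 CPM in KO-labelled testes. Control library 3 was the highest of all 6, and the KO-labelled values lay within the control range. This gave a log2FC of -0.25 (SE 0.23, 95% interval -0.74 to 0.25, adjusted p = 0.452 in edgeR), and without control library 3 it was 0.18 (adjusted p = 0.452 in edgeR). That library also held the most residual ribosomal RNA, 1.67% of its counts where the other 5 libraries held 1.03% to 1.56%. Scaled to somatic cell markers, the value was -0.83 (adjusted p = 0.011 in edgeR). *Rn7s1*, the identical copy, had 5, 2 and 24 counts in controls against 5, 6 and 9 counts in KO-labelled testes, so again control library 3 was highest. How the aligner divided reads between these identical copies was not given in the sources used here, and the split between *Rn7s1* and *Rn7s2* is uncertain.

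Summed over the 5 RNA genes, the share of all counts was 0.00546%, 0.00324% and 0.00635% in the control libraries and 0.00530%, 0.00385% and 0.00534% in the KO-labelled libraries. The mean shares of 0.00501% ± 0.00160 (SD, n = 3) and 0.00483% ± 0.000848 (SD, n = 3) differed by less than the spread between replicates. RNAs known to be among the most abundant of a cell thus made up a small share of what was counted, in libraries that were depleted of abundant transcripts and counted without reads of several places. Which transcripts the depletion removed was not given in the sources used here.

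**Figure D2:**
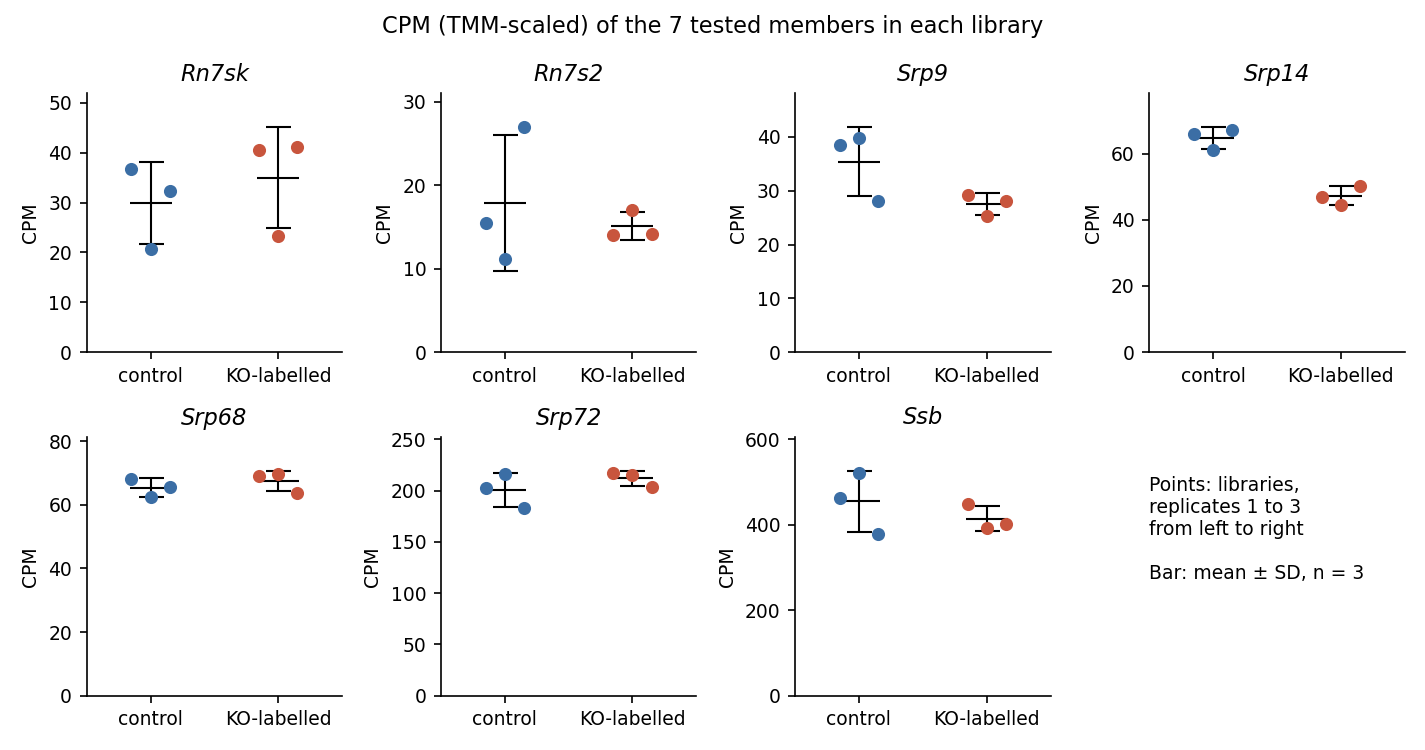
CPM (scaled by TMM) of the 7 tested members in each library, with points for replicates 1 to 3 from left to right, a bar for the mean and whiskers for the SD (n = 3), each panel from 0. The KO-labelled points of *Srp14* lie between 44.5 and 50.3 CPM, below all control points, and the groups overlap in the 6 other panels.

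The pair on the Alu domain of 7SL fell. *Srp14* (chr2:118475850-118479711) had 65.9, 61.1 and 67.2 CPM in controls against 47.0, 44.5 and 50.3 CPM in KO-labelled testes. Every KO-labelled library was below every control library. The log2FC was -0.45 (SE 0.09, 95% interval -0.64 to -0.27, adjusted p = 0.00102 in edgeR), a level 0.730-fold that of the control. *Srp9* (chr1:182124737-182132407) had 38.4, 39.7 and 28.1 CPM in controls against 29.2, 25.3 and 28.1 CPM in KO-labelled testes. Control library 3 lay among the KO-labelled libraries, so the groups overlapped. The log2FC of *Srp9* was -0.36 (SE 0.13, 95% interval -0.63 to -0.09, adjusted p = 0.0401 in edgeR). This call stands close to the threshold: it was lost in DESeq2 (adjusted p = 0.0608) and limma-voom (adjusted p = 0.0554), and in edgeR without control library 1 (adjusted p = 0.170), control library 2 (adjusted p = 0.251), KO-labelled library 2 (adjusted p = 0.163) or KO-labelled library 3 (adjusted p = 0.0602). Of the 5537 windows of 50 bases in *Srp9* transcripts, 220 also occur in other genes, 204 of them in *Gm13736*, whereas *Srp14* had 0 such windows.

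The pair on the S domain did not pass the test. *Srp68* (chr11:116245166-116274217) had 68.3, 62.4 and 65.5 CPM in controls against 69.2, 69.5 and 63.8 CPM in KO-labelled testes. Its log2FC was 0.05 (95% interval -0.13 to 0.22, adjusted p = 0.712 in edgeR). *Srp72* (chr5:76974683-76999937) had 203, 216 and 183 CPM in controls against 218, 215 and 204 CPM in KO-labelled testes. Its log2FC was 0.08 (95% interval -0.09 to 0.25, adjusted p = 0.487 in edgeR). The intervals allow changes of 0.914-fold to 1.17-fold and of 0.938-fold to 1.19-fold. Scaled to somatic cell markers, these signs turned, to -0.53 for *Srp68* (adjusted p = 9.4e-05 in edgeR) and -0.49 for *Srp72* (adjusted p = 7.9e-05 in edgeR).

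A ratio of 2 genes within a library needs no scaling between libraries, and 4 such ratios were taken after the values had been seen. *Srp14* counts per *Srp68* count were 0.966, 0.979 and 1.03 in the control libraries and 0.680, 0.640 and 0.789 in the KO-labelled libraries. *Srp9* counts per *Srp72* count were 0.190, 0.184 and 0.153 in the control libraries and 0.134, 0.118 and 0.138 in the KO-labelled libraries. For both, every KO-labelled library lay below every control library, which restates the values above without scaling and is no further test. Within the Alu domain pair, *Srp9* per *Srp14* overlapped between the groups (0.583, 0.650 and 0.417 against 0.621, 0.569 and 0.559). Within the S domain pair, *Srp68* per *Srp72* overlapped too (0.337, 0.288 and 0.358 against 0.318, 0.324 and 0.313).

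La was not distinguishable. *Ssb* (chr2:69861562-69871846) had 463, 522 and 379 CPM in controls against 448, 393 and 402 CPM in KO-labelled testes. All KO-labelled values lay within the control range. This gave a log2FC of -0.13 (SE 0.10, 95% interval -0.36 to 0.09, adjusted p = 0.358 in edgeR), and without control library 2 it was 0.02 (adjusted p = 0.923 in edgeR).

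Levels of different genes were set side by side only as CPM per kilobase of exon, here without TMM scaling, as control means ± SD (n = 3). *Ssb* was highest at 218 ± 29.5, with no control library as low as any of the next gene. *Rn7sk* at 94.1 ± 27.3, *Rn7s2* at 62.4 ± 29.7 and *Srp14* at 56.3 ± 4.08 followed, and in this order the control libraries of *Rn7sk* and *Rn7s2* overlapped, as did those of *Rn7s2* and *Srp14*. *Srp72* at 36.4 ± 2.23, *Srp68* at 24.8 ± 1.53 and *Srp9* at 6.62 ± 1.08 came next, each without overlap with its neighbours. *Rn7s1* at 0.863 ± 0.939 and *Rpph1* at 0.0563 ± 0.0497 were lowest, and both *Rmrp* rows were at 0. The small RNA rows lost reads shared with other rows, so these levels are of counted reads, and *Srp9* is divided by a long exon length of 5541 bases where *Srp14* has 1195.

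The other rows that resemble 7SK, 7SL and RPPH1 were looked up after the members' values had been seen. A BLAST search found 220 other rows that resemble *Rn7sk*, of which 98 had counts and 12 were tested. *Gm24447*, identical to 7SK up to the split shown above, had 424, 351 and 494 CPM in controls against 452, 334 and 334 CPM in KO-labelled testes. Its counts were 12.5 times those of *Rn7sk* over all libraries, with 8.12 to 17.0 times by library. The log2FC was -0.18 (95% interval -0.46 to 0.09, adjusted p = 0.309 in edgeR), and it became a call without KO-labelled library 1 (-0.33, adjusted p = 0.0353 in edgeR). Summed over *Rn7sk* and all rows like it, the level was 478 ± 82.5 CPM in controls and 430 ± 78.1 CPM in KO-labelled testes (SD, n = 3), a difference smaller than the spread between replicates. Most of this sum was *Gm24447*, with means of 423 CPM in controls and 373 CPM in KO-labelled testes. *Rn7sk* held 7.05% of the summed counts, so the sum says little about 7SK itself.

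Among the 12 tested rows like 7SK, 1 was called. *Gm23037* had 0.576, 0.329 and 0.681 CPM in controls against 0, 0.0934 and 0.210 CPM in KO-labelled testes, with a log2FC of -2.34 (adjusted p = 0.0388 in edgeR) that rests on few counts and was lost in DESeq2 (adjusted p = 0.0575) and without any of control libraries 1, 2 and 3 or KO-labelled libraries 1 and 2 (adjusted p of 0.106, 0.0614, 0.148, 0.102 and 0.116 in edgeR). The 17 rows that resemble *Rn7s2* had 6 tested and 0 called by edgeR, DESeq2 or limma-voom (0 at an unadjusted p under 0.05), with log2FC values of -0.52 to -0.02. Among them *Rn7s6*, an RNA 98.6% identical over 214 aligned bases, had 3.34, 2.54 and 5.61 CPM in controls against 2.23, 2.78 and 3.90 CPM in KO-labelled testes. Control library 3 was again the highest. Its log2FC was -0.37 (adjusted p = 0.369 in edgeR).

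*Rprl3*, a row of the ribozyme class (chr8:3803069-3803358, - strand), matches *Rpph1* at 222 of 257 alignment columns, or 86.4%. It had 119, 93.3 and 198 CPM in controls against 108, 126 and 115 CPM in KO-labelled testes, far above *Rpph1* itself. This gave a log2FC of -0.24 (95% interval -0.64 to 0.17, adjusted p = 0.373 in edgeR), and without control library 3 it was 0.13 (adjusted p = 0.387 in edgeR). Of the 270 windows of read length in *Rpph1*, 184 also occur in other genes, all of them in *Ccnb1ip1*. A full-length RPPH1 read identical to the annotated sequence thus has no exact match in *Rprl3*. Whether RPPH1 reads that were shorter or differed from that sequence were counted in *Rprl3* was not tested.

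**Figure D3:**
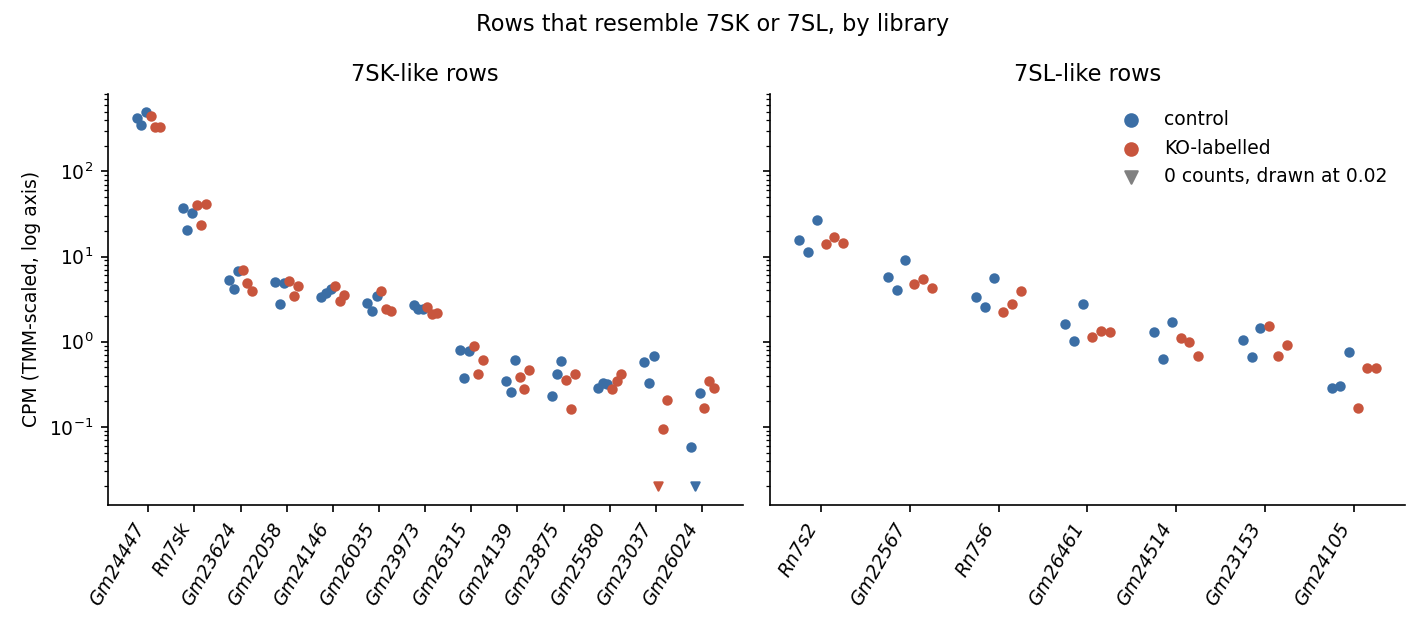
CPM (scaled by TMM, log axis) of the tested rows that resemble 7SK (left) and 7SL (right), with 6 points per row for the 3 control (blue) and 3 KO-labelled libraries (red), and triangles at 0.02 for 0 counts. *Gm24447* lies between 334 and 494 CPM, above *Rn7sk* in every library, and the groups overlap in every row but *Gm23037*.

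Other small structured RNAs gave no call. Of 28 symbols found in the table, 10 rows were tested and 0 were called by edgeR, beside 32.7% of all tested genes. There were 0 at an unadjusted p under 0.05 and 0 in DESeq2 and limma-voom. Most rows were low, with control means of 0.176 CPM (*Rny3*) to 3.83 CPM (*Rn7s6*) below *Scarna2* at 15.4 CPM. Intervals were wide, as from -0.67 to 2.23 for *Rny3* and from -3.09 to 0.04 for *Rnu3b2*, so large changes could have gone uncalled. The list held snRNAs, snoRNAs, scaRNAs, Y RNAs, a vault RNA, the telomerase RNA, *Bc1* and *Rn7s6*. *Rn7s6* is also among the rows like 7SL given above. Of the 33 rows, 8 had 0 counts in every library. Their summed level was 19.8 to 40.9 CPM in controls and 20.3 to 30.1 CPM in KO-labelled testes.

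Of the remaining SRP genes, 5 were tested and only *Srp19* was called, beside 32.7% of all tested genes. *Srp19* fell, and its product sits on the S domain and helps SRP54 to bind 7SL. The falls among SRP genes were thus not limited to the pair on the Alu domain. *Srp19* had 75.7, 67.1 and 63.6 CPM in controls against 53.5, 55.6 and 49.4 CPM in KO-labelled testes. The groups did not overlap, and the log2FC was -0.38 (SE 0.09, adjusted p = 0.00509 in edgeR). The near-identical copies of *Srp54* are uncertain, since reads that fit several were not counted. *Srp54a* had 5.64, 17.7 and 7.61 CPM in controls against 5.42, 7.84 and 7.10 CPM in KO-labelled testes, so control library 2 stood apart. Its log2FC was -0.60 (adjusted p = 0.157 in edgeR), without control library 2 it was 0.07 (adjusted p = 0.848 in edgeR), and it became a call without control library 1 (-0.90, adjusted p = 0.0308 in edgeR) or without the filter on low counts (-0.58, adjusted p = 0.00638 in edgeR). *Srp54c* had a log2FC of 0.15 (adjusted p = 0.371 in edgeR), and *Srp54b*, with 6 counts in all, was not tested. The SRP receptor genes *Srpr* (log2FC -0.05, adjusted p = 0.796 in edgeR) and *Srprb* (-0.21, adjusted p = 0.255 in edgeR) did not pass the test.

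The 7SK particle held 1 fall and 1 rise among 7 tested genes, beside 16.5% lower and 16.2% higher over all tested genes. *Larp7*, whose product binds the 3′ end of 7SK and keeps the RNA stable, had 111, 111 and 90.2 CPM in controls against 58.5, 66.8 and 69.4 CPM in KO-labelled testes. The groups did not overlap, and the log2FC was -0.68 (SE 0.10, adjusted p = 0.000116 in edgeR). *Hexim1*, which inhibits P-TEFb when bound to 7SK, had 68.5, 62.8 and 70.8 CPM in controls against 80.8, 88.1 and 81.3 CPM in KO-labelled testes. Its log2FC was 0.31 (SE 0.08, adjusted p = 0.0105 in edgeR), the call was lost without KO-labelled library 2 (adjusted p = 0.0549 in edgeR), and the sign turned to -0.27 under the scaling to somatic cell markers (adjusted p = 0.0169 in edgeR).

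The capping enzyme gene *Mepce* did not pass the test, with a log2FC of -0.22 (adjusted p = 0.098 in edgeR). The P-TEFb kinase gene *Cdk9* had 0.11 (adjusted p = 0.319 in edgeR), and its cyclin genes *Ccnt1* and *Ccnt2* had 0.05 (adjusted p = 0.656) and -0.01 (adjusted p = 0.955), all as log2FC values. *Hexim2* had a log2FC of 0.06 (adjusted p = 0.802 in edgeR).

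The proteins of RNase P and RNase MRP had 3 lower and 1 higher of 11 tested, beside 16.5% lower and 16.2% higher over all tested genes. *Pop4*, a subunit shared by both enzymes, had 70.6, 86.4 and 71.9 CPM in controls against 28.4, 25.1 and 29.9 CPM in KO-labelled testes. This was the largest change among the tested genes of the 6 protein lists described here, a log2FC of -1.46 (SE 0.10, adjusted p = 2.0e-07 in edgeR). *Rpp30*, another shared subunit, had a log2FC of -0.60 (SE 0.11, adjusted p = 0.000545 in edgeR). *Rpp38* had -0.42 (adjusted p = 0.0270 in edgeR), which was lost without control library 1 (adjusted p = 0.0927), control library 2 (0.137), KO-labelled library 2 (0.0714) or KO-labelled library 3 (0.0619), and without the filter on low counts (0.0684). *Rpp25* had 0.53 (adjusted p = 0.0383 in edgeR) from levels of 4.75 to 7.41 CPM in controls and 7.67 to 9.31 CPM in KO-labelled testes. That rise was lost without control library 1 (adjusted p = 0.113), control library 2 (0.115), KO-labelled library 2 (0.121) or KO-labelled library 3 (0.0573), and its sign turned to -0.05 under the scaling to somatic cell markers (adjusted p = 0.835 in edgeR).

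**Figure D4:**
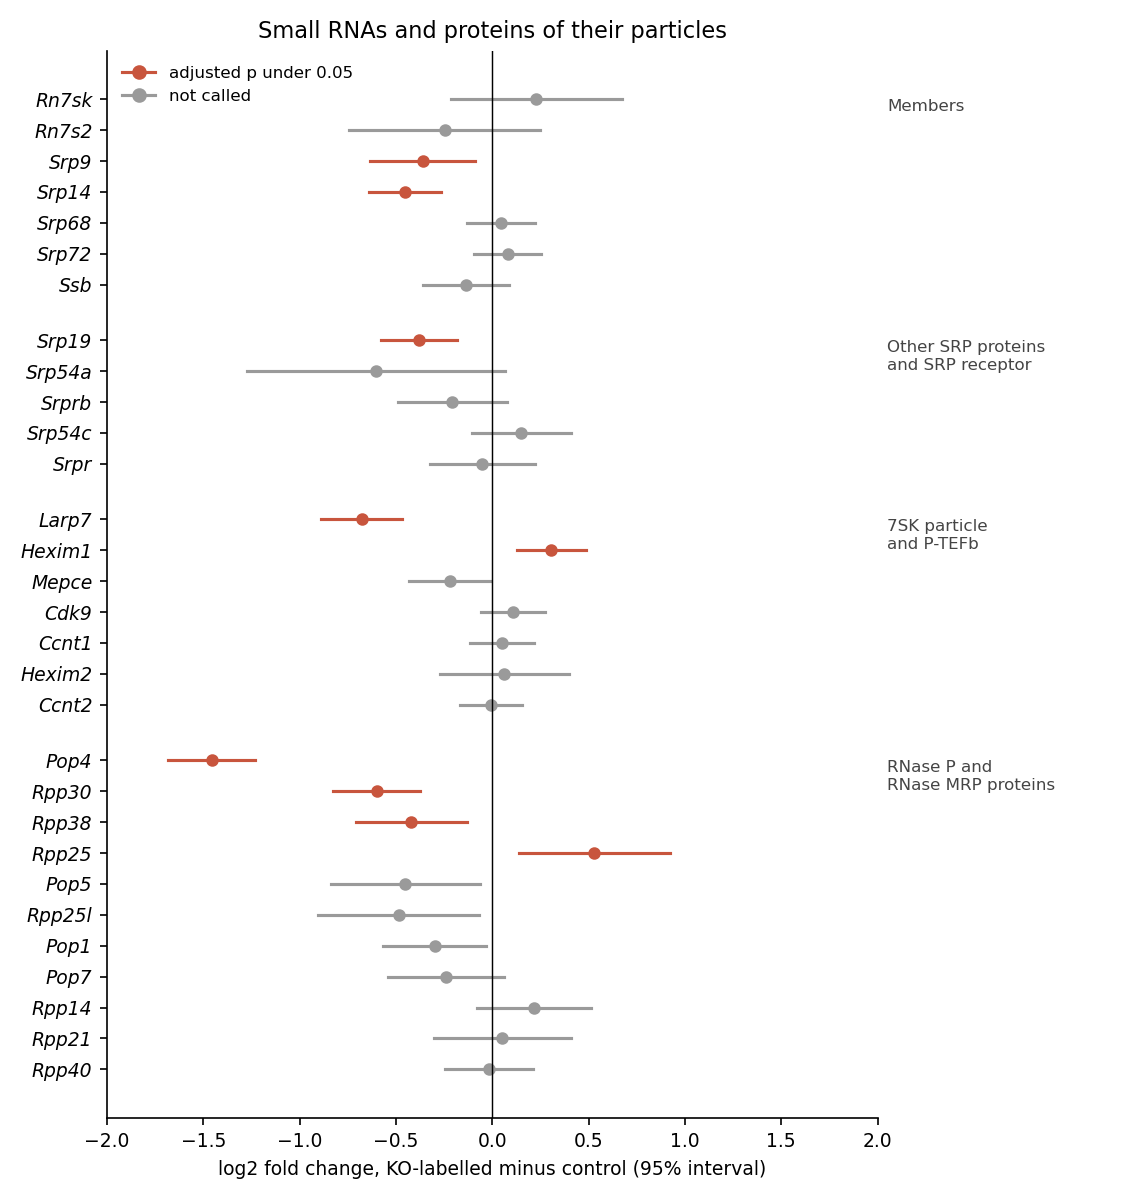
Log2 fold changes (KO-labelled minus control) with 95% intervals for the 7 tested members and for the genes of the SRP, 7SK particle and RNase P and MRP lists, in red where the adjusted p is under 0.05. *Srp14*, *Srp9* and *Srp19* of the SRP lie left of 0 while *Srp68* and *Srp72* straddle it, and *Pop4* lies farthest left at -1.46.

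Among the La-related proteins and Ro60, 1 of 6 tested genes was lower and 1 higher, beside 16.5% and 16.2% over all tested genes. *Larp1b* fell, with 145, 135 and 115 CPM in controls, 75.3, 75.1 and 91.0 CPM in KO-labelled testes and a log2FC of -0.71 (SE 0.10, adjusted p = 1.0e-04 in edgeR). *Larp1*, a regulator of mRNAs for ribosomal proteins, had a log2FC of 0.25 (adjusted p = 0.0353 in edgeR). Its call was lost with library sizes from protein-coding genes (adjusted p = 0.0635), without control library 1 (0.149), control library 3 (0.0781), KO-labelled library 2 (0.125) or KO-labelled library 3 (0.112), and its sign turned to -0.32 under the scaling to somatic cell markers (adjusted p = 0.00879 in edgeR).

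RNA polymerase III, which transcribes all 5 RNA genes, and its factors had 7 lower and 0 higher of 32 tested genes in edgeR, beside 16.5% lower and 16.2% higher over all tested genes. At an unadjusted p under 0.05, 12 were lower and 1 higher, and DESeq2 called 4 lower and 1 higher, limma-voom 7 lower and 1 higher. The 3 with the smallest adjusted p are named. *Pou2f1*, the octamer-binding factor OCT1, had 157, 156 and 144 CPM in controls against 95.2, 108 and 117 CPM in KO-labelled testes, with a log2FC of -0.51 (adjusted p = 0.000444 in edgeR). *Snapc3*, a subunit of the snRNA-activating complex, had -0.48 (adjusted p = 0.000894 in edgeR), and *Tbp*, the TATA-binding protein, had -0.39 (adjusted p = 0.00259 in edgeR). The median of the list was -0.13.

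Genes that act after SRP at the ER membrane were mixed, with 3 higher and 4 lower of 17 tested. Over all tested genes 16.2% were higher and 16.5% lower. *Sec61a2*, an alternative subunit of the Sec61 channel, fell from 75.0, 89.1 and 73.8 CPM in controls to 50.1, 50.4 and 48.3 CPM in KO-labelled testes (log2FC -0.68, adjusted p = 6.1e-05 in edgeR). *Sec61a1*, the main channel subunit, had a log2FC of 0.23 (adjusted p = 0.0227 in edgeR), lost without control library 1 (adjusted p = 0.102), KO-labelled library 2 (0.0572) or KO-labelled library 3 (0.0531). Of the 5 subunit genes of signal peptidase tested, 1 was higher, 3 were lower and 1 was not called, with *Spcs1* at 0.50 (adjusted p = 0.00158 in edgeR), *Sec11a* at -0.35 (adjusted p = 0.00652 in edgeR) and *Spcs3* at -0.32 (adjusted p = 0.0120 in edgeR) as log2FC values. The others, named after their values were seen, were *Sec11c* at -0.70 (adjusted p = 0.0125 in edgeR, and 0.102 without control library 1) and *Spcs2* at 0.03 (adjusted p = 0.846 in edgeR). The calls of *Sec11a* and *Spcs3* were lost without control library 2 (adjusted p = 0.0604 and 0.0947 in edgeR), and that of *Spcs3* also without KO-labelled library 3 (adjusted p = 0.0570). *Tram1*, at 0.24 (adjusted p = 0.0419 in edgeR), was no longer called with library sizes from protein-coding genes, with at least 10 counts in every library or without any 1 of 5 libraries (adjusted p of 0.0512 to 0.199). Scaled to somatic cell markers, the 3 rises turned to -0.35 for *Sec61a1*, -0.08 for *Spcs1* and -0.34 for *Tram1*.

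Over the 6 protein lists together, 23 of 78 tested genes were called, 6 higher and 17 lower, or 29.5% beside 32.7% of all tested genes. The split depends on the scaling: with library sizes from protein-coding genes it was 3 higher and 20 lower, and with the scaling to somatic cell markers 0 higher and 75 lower. The median log2FC was -0.05, beside -0.02 over all tested genes.

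Genes next to the RNA genes did not move together. *Ccnb1ip1*, a meiotic crossover gene that shares its first exon with *Rpph1*, had a log2FC of -1.75 (SE 0.23, adjusted p = 5.7e-05 in edgeR). *Parp2*, whose start lies 74 bases from that of *Rpph1* on the opposite strand, had -0.37 (SE 0.09, adjusted p = 0.00665 in edgeR). *Ccdc107* next to *Rmrp* had 0.19 (adjusted p = 0.351), *Rps29* next to *Rn7s1* had 0.25 (adjusted p = 0.334) and *C920006O11Rik* next to *Rn7sk* had -0.91 (adjusted p = 0.264), and none of these 3 passed the test in edgeR.

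**Figure D5:**
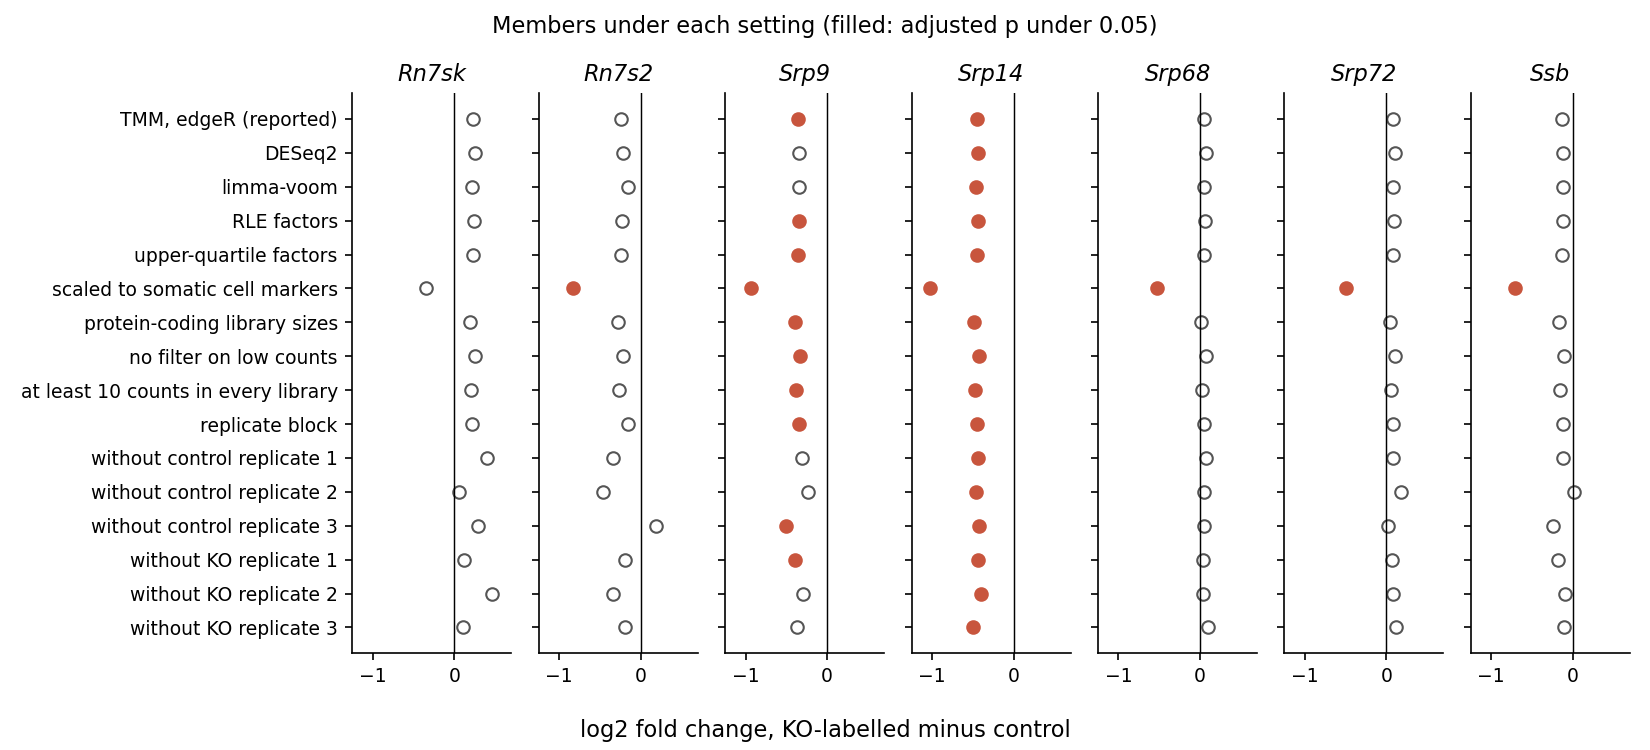
Log2 fold changes (KO-labelled minus control) of the 7 tested members under the reported setting and 15 others, 1 line per setting, filled where the adjusted p is under 0.05. *Srp14* is filled and left of 0 on every line, *Srp9* is open on 6 lines, and the line scaled to somatic cell markers lies to the left in every panel.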

How the data were processed

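Total RNA of P12 testes was made into libraries with random and poly(T) priming, strand selection and depletion with AnyDeplete. Per the study's methods and the submitters' processing notes, the authors used cutadapt for trimming the single-end reads, HISAT2 for alignment to GRCm38.p5 and featureCounts 1.6.4 with GENCODE M18 for counting, by strand and without reads that fit several places or genes. The deposited values are these raw counts, and 0 of their columns went unused. Gene names are those of GENCODE M21, matched for 54165 of 54232 identifiers. Sequences were read from the GENCODE M21 transcripts (GRCm38) and compared with blastn 2.17.0 (E-value 1e-10).

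Counts were tested with edgeR 4.0.16 under R 4.3.3 (TMM, filterByExpr, glmQLFit, glmQLFTest) with 3 libraries per group, and intervals are 95%. The tests were checked on simulated counts in which few genes changed, as many up as down, with the same dispersion for every gene. That check does not cover the scaling or the error rate under the broad shifts of these data. DESeq2 1.42.0 and limma 3.58.1 (voom) were alternatives, beside other scalings and filters. A test planned for the summed share of the RNA genes is not given, since it would be a p-value over members. The members and lists were chosen with earlier results of these data known. Named genes were all members, all genes of the SRP and 7SK particle lists, up to 3 called genes per direction from each other list (any called gene where 5 or fewer were), the genes within 2 kb of an RNA gene, *Dis3l2* and *Dis3*. The resembling rows and the ratios of genes were added after values had been seen. No library was a copy of another (chi-square over its degrees of freedom at least 11.1 for any 2 replicates). Intervals come from the same fit as the p-values and include the spread between libraries, while limits for a count of 0 cover counting error only. Tables and plots were made with Python 3.11.15, pandas 2.3.3 and matplotlib 3.10.9.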

Additional observations from a re-analysis of the deposited data

How the results depend on the processing

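*Srp14* stayed lower and called under all 15 alternatives, with log2 fold changes of -1.03 to -0.40, the former under the scaling to somatic cell markers. The number of members called was 2 in the reported fit, 1 in DESeq2, 1 in limma-voom, 6 with somatic marker scaling and 1 to 2 with 1 library left out, and without control replicate 1, control replicate 2, KO replicate 2 or KO replicate 3 it was 1. *Srp9*, at -0.36, was -0.34 in both DESeq2 and limma-voom, where its call was lost, and -0.50 to -0.23 with 1 library left out. Somatic marker scaling called 11899 genes (242 higher and 11657 lower, against 6641) and 75 pathway genes (against 23), and its log2 fold changes for members were -0.35 (*Rn7sk*), -0.83 (*Rn7s2*), -0.53 (*Srp68*), -0.49 (*Srp72*) and -0.71 (*Ssb*). By construction it moves every gene down by about the same amount, 0.57 on the log2 scale. Under it *Hexim2* (-0.52), *Hexim1* (-0.27), *Ccnt1* (-0.52), *Cdk9* (-0.47), *Srp54c* (-0.43), *Rpp25* (-0.050), *Larp1* (-0.32), *Spcs1* (-0.076), *Sec61a1* (-0.35), *Tram1* (-0.34), *Ccdc107* (-0.38) and *Dis3l2* (-0.35) turned sign. With 1 library left out, pathway calls ranged from 15 (without control replicate 1) to 20, genes called from 4948 to 6669, *Rn7sk* from 0.06 to 0.46, *Rn7s2* from -0.46 to 0.18 and *Ssb* from -0.25 to 0.017. The other causes of these changes were not tested. The difference in the summed share of the RNA genes stayed within 1 SD of the control libraries under every alternative, and its sign varied. *Srp14* stood 8.51 times above *Srp9* per kilobase in the control and 1.84 times above it without division by length. Libraries with the same replicate number did not deviate together (across genes, their deviations correlated at -0.0014, -0.0126 and 0.0139), and no pairing was taken from the numbers. With the replicate block 6561 genes, 2 members and 25 pathway genes were called, and no member's call changed. *Rn7s1*, *Rn7s2*, *Rpph1* and *Rmrp* are limited by bases shared with other rows.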
